A study of Mus musculus with 5 samples.

Results

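The 7 genes examined have products that carry out or regulate bone resorption: Acp5, Car2, Calcr, Ckb, Slc9b2, Clcn7 and Myo1d. They were taken by gene symbol from the annotation of a one-colour oligonucleotide array, on which they account for 8 of 12488 probe sets and 7 of 8251 genes with a single symbol. They were chosen with earlier results of these data known, so their counts and places beside all genes are descriptions alone. Clcn7 has 2 probe sets and each other gene has 1. Total RNA came from 5 mouse co-cultures, 1 array each, in which blood-forming cells and the stromal line ST2-T were kept together for 6 days. The medium held dexamethasone and 1,25-dihydroxyvitaminD3, the additives that make stromal cells support osteoclast formation. The cultures were Fos+/+ splenocytes, Fos-/- splenocytes, Fos+/+ bone-marrow cells, Fos-/- splenocytes infected with a deltaNFAT-virus and Fos-/- splenocytes infected with a GFP-virus. All dishes shared the stromal line and both hormones. Cells were harvested together, so stromal RNA is part of every value, and fewer osteoclasts cannot be told apart from less RNA per osteoclast. The strain, age and number of animals, the doses of the viruses and the make-up of deltaNFAT were not given in the sources used here. There was no replicate, so no difference below has a replicate error, and no p-value can be given.

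Osteoclasts are multinucleated cells of the monocyte lineage that dissolve bone mineral with acid and digest its collagen with proteases in a sealed space under the cell. Carbonic anhydrase II, encoded by Car2, makes protons and bicarbonate from carbon dioxide and water. A vacuolar proton pump moves the protons across the ruffled border, and the chloride-proton exchanger ClC-7, encoded by Clcn7, carries the matching chloride. Acp5 encodes tartrate-resistant acid phosphatase, whose activity is the standard stain for osteoclasts. Calcr encodes the calcitonin receptor, through which calcitonin halts resorption. Ckb encodes the brain-type creatine kinase, which regenerates ATP, Slc9b2 encodes a sodium-proton exchanger abundant in osteoclasts, and Myo1d encodes a class I myosin. The Fos protein forms part of AP-1, a transcription factor, and mice without it form no osteoclasts. NFAT proteins are transcription factors activated through calcineurin, and Nfatc1 is required for osteoclast formation. The design asks how far these genes depend on Fos and how far a deltaNFAT virus restores them without it.

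Intensities are on the deposited linear scale, in which about 20.3 to 22.4% of the values of an array lay at or below 0. A floor of 19.8, the 40th percentile of all values, was used as the limit of measurement, and 7292 to 7769 probe sets of an array lay above it. A gene was called higher or lower where 2 arrays differed by at least 2-fold and the brighter reached 39.6, which is 2 times the floor. A dimmer value that did not exceed the floor was set to it, and the fold is then written "at least". Fos itself read 849 and 614 in the Fos+/+ spleen and marrow cultures and 426 to 607 in the 3 Fos-/- arrays by its brighter probe set. The stroma has its own Fos and the part of the gene that the probes cover is not known, so these values check no label.

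Acp5 and Calcr, the stain and the hormone receptor by which osteoclasts are identified, were both high in the Fos+/+ cultures. The Acp5 intensity was 3837 for Fos+/+ spleen cells, 2579 for Fos+/+ marrow cells, 462 for uninfected Fos-/- cells, 239 with GFP virus and 964 with deltaNFAT virus. Acp5 was thus above the floor on all 5 arrays, and the deltaNFAT array lay between the Fos+/+ arrays and the other Fos-/- arrays. The Calcr intensity was 337 for Fos+/+ spleen cells, 395 for Fos+/+ marrow cells, -5.50 for uninfected Fos-/- cells, -4.40 with GFP and 86.4 with deltaNFAT. Calcr was under the floor in both Fos-/- cultures without deltaNFAT, and it is the single member that read higher in bone marrow than in spleen among the Fos+/+ cultures.

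Of the genes for acid and ion transport, Car2 and Slc9b2 were measurable with Fos or with deltaNFAT and not otherwise. The Car2 intensity was 971 for Fos+/+ spleen cells, 719 for Fos+/+ marrow cells, 13.9 for uninfected Fos-/- cells, 13.001 with GFP and 48.4 with deltaNFAT. The Slc9b2 intensity was 357 for Fos+/+ spleen cells, 120 for Fos+/+ marrow cells, -1.70 for uninfected Fos-/- cells, 7.80 with GFP and 52.2 with deltaNFAT. For both genes the deltaNFAT reading was dim, and each Fos+/+ reading was at least 2-fold above it. On the deltaNFAT array 2.55% of all probe sets read at least as far below 0 as Car2 read above it. The same share was 2.31% for Slc9b2 and 0.825% for Calcr, which sets these readings beside the scatter below 0.

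Clcn7 was above the floor on every array by both of its probe sets. The brighter one read 466 for Fos+/+ spleen cells, 315 for Fos+/+ marrow cells, 272 for uninfected Fos-/- cells, 180 with GFP and 252 with deltaNFAT. The dimmer one read 269, 161, 124, 68.5 and 113 in the same order. Both were highest in Fos+/+ spleen and lowest with GFP.

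Ckb and Myo1d, which serve energy supply and the actin cytoskeleton, were above the floor in every culture. The Ckb intensity was 2784 for Fos+/+ spleen cells, 1559 for Fos+/+ marrow cells, 448 for uninfected Fos-/- cells, 203 with GFP and 524 with deltaNFAT. With deltaNFAT, Ckb lay close to the Fos-/- culture without virus. The Myo1d intensity was 229 for Fos+/+ spleen cells, 119 for Fos+/+ marrow cells, 42.3 for uninfected Fos-/- cells, 35.2 with GFP and 60.7 with deltaNFAT. The Fos-/- readings of Myo1d were dim: 3.996% of the probe sets of the uninfected array, 4.34% with GFP and 1.84% with deltaNFAT read as far below 0. The Fos+/+ arrays lay above all Fos-/- arrays for each of the 7 genes, although for Clcn7 the gap between Fos+/+ bone marrow and Fos-/- spleen was small.

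**Figure D1:**
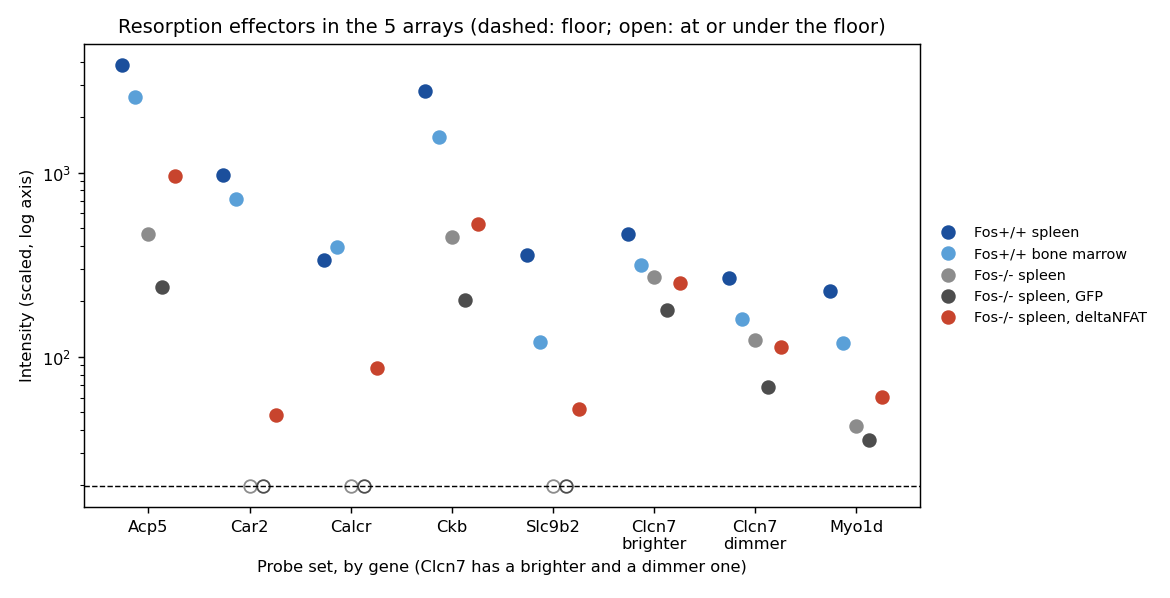
Scaled intensity (log axis) of the 8 probe sets of the 7 genes on the 5 arrays, 1 point per array. Open points on the dashed line are values at or under the floor of 19.8, which occur for Car2, Calcr and Slc9b2 in Fos-/- spleen with and without GFP virus, while their deltaNFAT readings lie between 48.4 and 86.4.

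Promoter sequences are shown because most of these genes differed together between the cultures and because AP-1 and NFAT are factors that the cultures vary. They are the 250 bases before an annotated transcript start, from RefSeq on GRCm38.p6, 5' to 3' on the strand of the gene. The table matched 5 of the 7 members (Acp5, Calcr, Ckb, Slc9b2 and Clcn7) with 9 windows. Capitals mark matches to an NFAT motif (TGGAAA, here read on the other strand as TTTCCA). Sites that hold GGAAA without the leading T, on either strand, were not marked or counted. Capitals also mark the E-boxes bound by MITF, a transcription factor of osteoclasts (CACGTG or TCATGTG, the latter also as CACATGA). The Acp5 window is chr9:22130599-22130848 (minus strand), before the most downstream of its 3 starts. The Clcn7 window is chr17:25133141-25133390 (plus strand), the Calcr window chr6:3763624-3763873 (minus strand) and the Ckb window chr12:111672339-111672588 (minus strand).
Acp5: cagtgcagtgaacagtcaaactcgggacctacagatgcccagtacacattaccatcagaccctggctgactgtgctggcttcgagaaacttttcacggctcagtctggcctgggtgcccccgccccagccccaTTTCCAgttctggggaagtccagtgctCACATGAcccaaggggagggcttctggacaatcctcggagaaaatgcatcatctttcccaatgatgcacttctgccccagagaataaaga
Clcn7: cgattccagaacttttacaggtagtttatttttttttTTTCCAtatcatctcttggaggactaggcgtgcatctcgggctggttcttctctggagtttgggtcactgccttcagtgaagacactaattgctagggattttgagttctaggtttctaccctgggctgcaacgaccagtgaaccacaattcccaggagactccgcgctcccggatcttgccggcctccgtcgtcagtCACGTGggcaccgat
Calcr: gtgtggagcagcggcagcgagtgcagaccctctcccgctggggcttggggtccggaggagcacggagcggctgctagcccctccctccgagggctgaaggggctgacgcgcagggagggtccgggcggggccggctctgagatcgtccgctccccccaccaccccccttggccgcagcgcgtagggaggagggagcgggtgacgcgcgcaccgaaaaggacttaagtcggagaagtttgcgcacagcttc
Ckb: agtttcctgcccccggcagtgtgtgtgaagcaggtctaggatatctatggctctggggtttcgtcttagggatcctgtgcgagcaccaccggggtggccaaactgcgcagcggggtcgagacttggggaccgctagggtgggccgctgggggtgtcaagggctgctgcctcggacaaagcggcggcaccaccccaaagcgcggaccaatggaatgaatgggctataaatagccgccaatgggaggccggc

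In the Acp5 window the NFAT motif lies 117 to 112 bases and the E-box 90 to 84 bases before the start. In the Clcn7 window the NFAT motif lies 213 to 208 and the E-box 15 to 10 bases before it. The AP-1 motif TGANTCA was in 0 of the 9 member windows, and 6.75% of all 32851 windows of this length held it, both strands searched. The NFAT motif TGGAAA was in 2 of 9 windows against 18.6% of all, the PU.1 motif GAGGAA in 0 of 9 against 23.3%, and an MITF E-box in 3 of 9 against 9.09%. The windows with an E-box belong to Acp5 (1 window) and Clcn7 (2 windows). The motifs searched do not overlap in the printed windows, and a match describes the letters alone.

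The comparison of Fos+/+ with Fos-/- spleen addresses how far each gene depends on Fos. Of the 7 genes 6 were higher with Fos, 0 were lower, and Clcn7 did not reach 2-fold. Over all 4999 genes bright enough, 6.52% were higher and 6.4% lower. The median log2 ratio of the members was 3.06, against -0.03 over all genes tested. Car2 was at least 49.0-fold higher, Slc9b2 at least 18.04-fold and Calcr at least 17.001-fold. Since their Fos-/- values are bounds, the order of these 3 is not known. Acp5 followed at 8.31-fold, Ckb at 6.22-fold and Myo1d at 5.40-fold, with both values above the floor. Clcn7 was 1.71-fold higher by its brighter and 2.17-fold higher by its dimmer probe set, so its call depends on which one stands for the gene. Among all genes bright enough, the ratios of Car2, Slc9b2, Calcr and Acp5 held places 1, 5, 6 and 13 from the top, Ckb and Myo1d places 28 and 38, and Clcn7 place 465, with bounds ranked at their bound.

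Fos+/+ bone marrow over Fos-/- spleen with GFP virus is another ratio of cells with and without Fos, made of arrays other than those above, but it differs in tissue and virus as well. The same count was found, 6 of 7 higher and 0 lower, where 9.19% of 5253 genes were higher and 5.98% lower. Car2 was at least 36.3-fold higher, Calcr at least 19.96-fold, Acp5 10.8-fold, Ckb 7.68-fold, Slc9b2 at least 6.08-fold and Myo1d 3.38-fold. Clcn7 was again under 2-fold by its brighter probe set (1.75-fold) and over it by the dimmer one (2.34-fold). The dimmer one read 161 in bone marrow, 68.5 with GFP and 124 without virus, so its call rests on the GFP array. GFP also read below the uninfected Fos-/- array for Acp5 (239 against 462), Ckb (203 against 448) and Myo1d (35.2 against 42.3). Their ratios here are therefore larger than over that array. The median log2 ratio of the members was at least 2.94, with a bound below it, against 0.08 over all genes tested. With the floor at the 60th percentile (65.1), Slc9b2 and Myo1d lost the call, at log2 ratios of 0.89 and 0.87.

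Spleen and bone marrow could also be compared within Fos+/+ cultures. In bone marrow against spleen 0 of 7 were higher and 1 was lower, where 13.1% of 5289 genes were higher and 7.18% lower. The lower one was Slc9b2, at 2.97-fold. The members had a median log2 ratio of -0.57, against 0.06 over all genes tested. Myo1d was 1.92-fold, Ckb 1.79-fold, Acp5 1.49-fold, Clcn7 1.48-fold and Car2 1.35-fold dimmer in bone marrow and Calcr 1.17-fold brighter, none of which reached 2-fold. Markers of other cells differed on the same arrays, with 11 of 12 neutrophil, 4 of 13 macrophage and 3 of 4 adipocyte markers higher in bone marrow, and their part in the Slc9b2 value was not tested.

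Among Fos-/- spleen cells, 5 of the 7 genes were higher with the deltaNFAT virus than with the GFP control virus and 0 were lower, where 3.52% of 5033 genes were higher and 2.66% lower. Calcr was at least 4.36-fold higher, Acp5 was 4.03-fold higher, Slc9b2 at least 2.64-fold, Ckb 2.58-fold and Car2 at least 2.44-fold. A member at the floor has a bound, so its place in this order is not settled. Myo1d at 1.72-fold and Clcn7 at 1.40-fold did not reach 2-fold. The median log2 ratio of the members was at least 1.37, with a bound below it, against -0.00 over all genes tested. With the floor at the 60th percentile (65.1) the calls of Calcr, Slc9b2 and Car2 were lost and 2 of 7 remained, Acp5 and Ckb.

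The GFP array read lower than the Fos-/- array without virus for all 4 members that could be compared. Ckb was 2.21-fold lower, and Acp5 (1.93-fold), Clcn7 (1.52-fold) and Myo1d (1.20-fold) did not reach 2-fold. Thus 0 of 4 members were higher and 1 lower, where 10.3% of 5114 genes were higher and 7% lower. The log2 ratio had a median of -0.775 over these 4 members and -0.11 over all genes tested. Car2, Calcr and Slc9b2 were at or under the floor on both arrays and have no ratio. The GFP array is the denominator of the deltaNFAT comparison and of the Fos+/+ bone marrow ratio. For the deltaNFAT comparison, the GFP values were also replaced by those without virus. Over Fos-/- spleen without virus, deltaNFAT had 4 of 7 members higher and 0 lower, where 11% of 5178 genes were higher and 6.66% lower. With the floor at the 60th percentile 1 of 7 was left, Acp5, and with 3-fold needed 1 of 7, Calcr. Acp5 was 2.09-fold higher, and Calcr, Slc9b2 and Car2 had the same bounds as over GFP. The median was 1.06 on the log2 scale, against -0.09 over all genes tested. Ckb read 1.17-fold higher, Myo1d 1.44-fold higher, and Clcn7 read 1.08-fold lower. These 3 did not reach 2-fold, so the call of Ckb depends on which Fos-/- culture is the control.

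**Figure D2:**
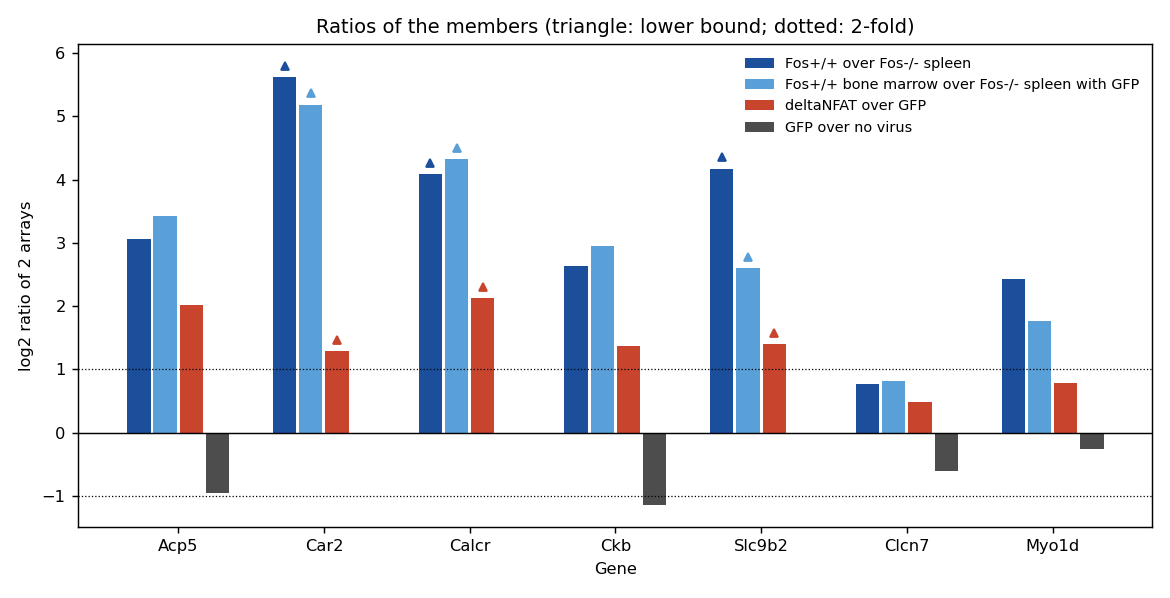
Log2 ratio of 2 arrays for each of the 7 genes in 4 comparisons (bars), with triangles over lower bounds and dotted lines at 2-fold. GFP over no virus has no bar for Car2, Calcr and Slc9b2, which were at the floor on both arrays, and the plotted deltaNFAT over GFP bar is the shorter beside both bars of Fos+/+ over Fos-/- cells for each gene.

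Relative to Fos+/+ spleen, the members read between 4.98% (Car2) and 54.1% (Clcn7) of the intensity in the deltaNFAT culture, with a median of 25.1%. Myo1d reached 26.6%, Calcr 25.7%, Acp5 25.1%, Ckb 18.8% and Slc9b2 14.6%. The corresponding shares in Fos-/- spleen without virus were 58.5% for Clcn7, 18.5% for Myo1d, 16.1% for Ckb, 12.0% for Acp5, and at most 5.88% for Calcr, 5.54% for Slc9b2 and 2.04% for Car2. With GFP they were 38.6% for Clcn7, 15.4% for Myo1d, 7.28% for Ckb and 6.24% for Acp5, with the same upper bounds for the other 3. Fos+/+ bone marrow reached 33.7% for Slc9b2, 117% for Calcr and 52.1 to 74.0% for the other 5.

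A share of the level mixes what the culture had without deltaNFAT with what the virus added, so the gap between GFP and Fos+/+ spleen was also taken. DeltaNFAT spanned 25.3% of that gap for Clcn7, 21.0% for Calcr, 20.1% for Acp5, 13.2% for Myo1d, 12.4% for Ckb, 9.60% for Slc9b2 and 3.01% for Car2. Counted from Fos-/- spleen without virus, these became -10.6% for Clcn7, 21.0% for Calcr, 14.9% for Acp5, 9.88% for Myo1d and 3.27% for Ckb, with Slc9b2 and Car2 as before. The gaps of Calcr, Slc9b2 and Car2 start from the floor. Calcr and Acp5 were therefore the members with the largest span by this measure when the control had no virus, and Clcn7, Ckb and Car2 those with the smallest. Over the 326 genes higher in Fos+/+ than in Fos-/- spleen, the median share of the Fos+/+ spleen level was 46.5% with deltaNFAT, 40.6% with GFP and 38.1% without virus. Those genes were selected on 2 of the arrays, which bounds their shares without virus in advance.

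**Figure D3:**
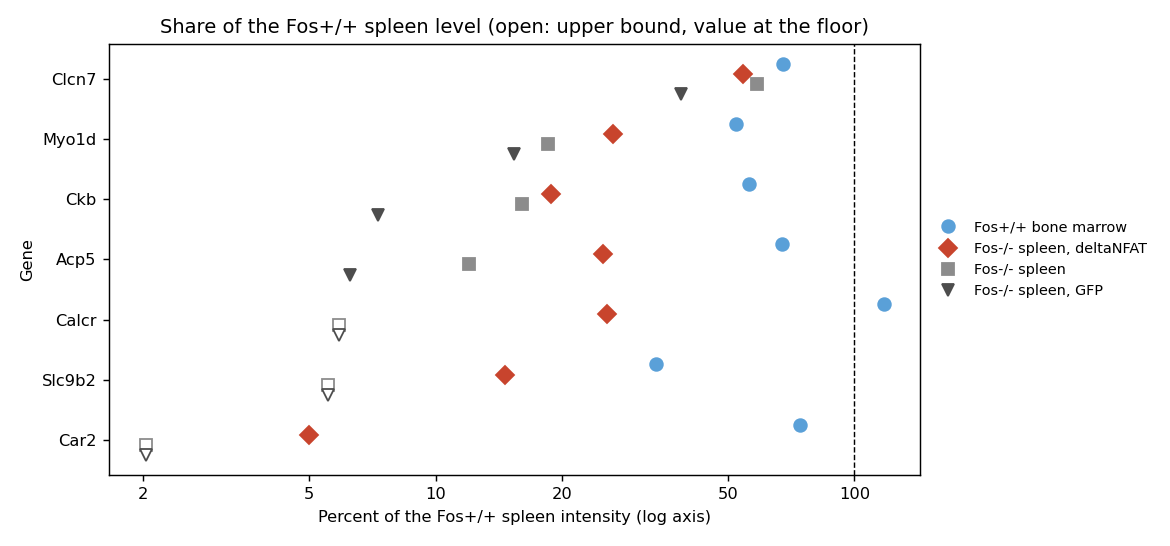
Intensity of each gene as a percent of its Fos+/+ spleen intensity (log axis) on the other 4 arrays, genes ordered by the share in Fos-/- spleen. Open symbols are upper bounds from values at the floor. The deltaNFAT point of Car2 lies at 4.98%, those of Calcr and Acp5 at 25.7% and 25.1%, and for Clcn7 the deltaNFAT and the uninfected Fos-/- points lie close together at 54.1% and 58.5%.

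Genes related to the members were counted in the same comparisons, against the shares of all genes given above (6.52% higher and 6.4% lower for Fos+/+ over Fos-/- spleen, 3.52% and 2.66% for deltaNFAT over GFP). Many relatives were too dim to be called. List counts throughout are over measured genes, while the shares of all genes are over those bright enough. Among other acid phosphatases 0 of 4 measured genes were higher and 0 lower for Fos+/+ over Fos-/- spleen, with Acp6 closest at 1.94-fold. Among other carbonic anhydrases 0 of 8 were higher and 0 lower, and 2 of the 8 were bright enough to be called. Car1, Car3, Car6, Car8 and Car12 were under the floor on all 5 arrays. With deltaNFAT, Car4, a membrane-bound carbonic anhydrase, was 2.46-fold lower than with GFP, reading 65.4 against 161, a call lost in the mean of its probe sets. It read 81.1 without virus, so over that control deltaNFAT was 1.24-fold lower and not called. Among Calcrl, Ramp1, Ramp2, Ramp3 and the other 3 measured genes of calcitonin family receptors and ligands, 0 of 7 differed between Fos+/+ and Fos-/- spleen, where 2 were bright enough. Ramp1, an accessory protein that changes the ligand choice of the calcitonin receptor, was 2.26-fold higher in Fos+/+ bone marrow than with GFP, a call lost with a pseudocount and with the floor at the 60th percentile. It read 84.0 in bone marrow, 85.3 in uninfected Fos-/- spleen and 37.1 with GFP, so the call rests on the GFP array. Of the other 5 CLC channels and exchangers 2 were bright enough in the Fos comparison within spleen, and 0 differed. Clcn5 was 2.06-fold higher with deltaNFAT than with GFP (142 against 68.6). Without virus it read 112, over which deltaNFAT was 1.27-fold higher and not called. Its probe sets differ: the call was lost in their mean, with a pseudocount, and with probe sets whose identifier has no letter suffix, where the log2 ratio was 0.01. Of 3 other class I myosins Myo1f was called in the Fos comparison within spleen, at 2.05-fold, and was lost with a pseudocount.

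Slc4a2 encodes the anion exchanger that returns the bicarbonate made by carbonic anhydrase to the blood side of the osteoclast. It read 441 for Fos+/+ spleen cells, 143 for Fos+/+ marrow cells, 101 for uninfected Fos-/- cells, 58.6 with GFP and 68.8 with deltaNFAT. The ratio of Slc4a2 was 4.35-fold for Fos+/+ over Fos-/- spleen, and it was 2.43-fold higher in Fos+/+ bone marrow than with GFP. Bone marrow read 143 against 101 in uninfected Fos-/- spleen, so the bone marrow call rests on the GFP array. That call was lost with 3-fold needed. With deltaNFAT, Slc4a2 was 1.17-fold above GFP and did not reach 2-fold. It was the single higher gene of 5 exchangers of sodium, protons and bicarbonate in the spleen comparison, where 3 were bright enough. Slc6a8, the creatine transporter, read 178 for Fos+/+ spleen cells, 111 for Fos+/+ marrow cells, 68.9 for uninfected Fos-/- cells, 72.3 with GFP and 48.5 with deltaNFAT. It was 2.59-fold higher with Fos in spleen, the single higher gene of 6 for other creatine kinases and creatine supply, where 3 were bright enough. Over GFP the deltaNFAT array read 1.49-fold lower for Slc6a8, which did not reach 2-fold.

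The vacuolar proton pump works beside Clcn7 and Car2. Of 16 measured V-ATPase subunits 7 were higher in Fos+/+ than in Fos-/- spleen and 0 lower, where 6.52% of all genes were higher. For Fos+/+ bone marrow over GFP 1 of 16 was higher, where 9.19% of all genes were, and for deltaNFAT over GFP 0 were higher and 0 lower, where 3.52% were higher. The median log2 ratios were 0.74, 0.43 and 0.04 in that order. With 3-fold needed for a call, 3 subunits were higher in the spleen comparison and 0 in the bone marrow one. Tcirg1, the osteoclast isoform of the membrane subunit a, was 6.55-fold higher with Fos and 1.27-fold higher with deltaNFAT. Of 12 other osteoclast genes 7 were higher with Fos in spleen and 0 lower, 8 were higher and 0 lower for Fos+/+ bone marrow over GFP, and 2 were higher and 0 lower for deltaNFAT over GFP. In that order 8, 11 and 9 of the 12 were bright enough. Their median log2 ratios were 1.26, 1.39 and 0.28, and 4, 3 and 2 of them were higher with 3-fold needed. The 2 higher with deltaNFAT were the protease gene Ctsk at 4.69-fold and Nfatc1 at 3.53-fold, the latter lost with the floor at the 60th percentile. Whether the Nfatc1 probe set also reads RNA from the deltaNFAT virus is not known, because the make-up of deltaNFAT was not given. The list of other osteoclast genes was written with earlier results of these data known. It shares Tcirg1 and another pump subunit with the V-ATPase list.

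**Figure D4:**
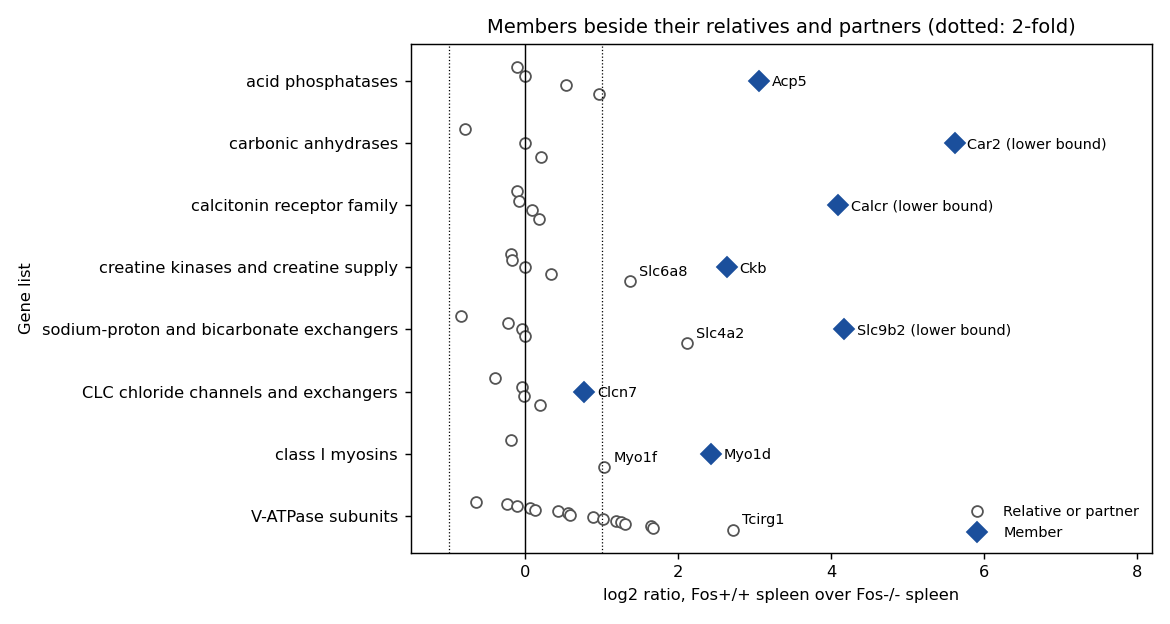
Log2 ratio of Fos+/+ to Fos-/- spleen for the members (diamonds) and for the relatives and partners above the floor on at least 1 array (circles), by gene list, with dotted lines at 2-fold. Car2, Calcr, Slc9b2, Acp5, Ckb and Myo1d lie to the right of every relative in their row, Slc4a2 and Slc6a8 are the circles past 2-fold in the exchanger and creatine rows, and 7 V-ATPase subunits pass it.

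Which genes had the profile most like each member was read from the root mean square difference of log2 intensities, each gene centred over the 5 arrays, among 4401 genes reaching 79.2 on some array. The distance between Acp5 and Ckb was 0.31, Ckb being the nearest gene to Acp5 and Acp5 the third nearest to Ckb. Ckb was nearest to Pstpip1 (0.26) and Cd200 (0.29). Calcr was nearest to Nfatc1 (0.49), Ctsk (0.52) and Acp5 (0.58), and Car2 to Ctsk (0.50), Dcn (0.64) and Gpr137b (0.65). Slc9b2 was nearest to Sema4d (0.41), Pstpip1 (0.41) and Acp5 (0.45), and Myo1d to Cd200 (0.19), Tcirg1 (0.19) and Aurka (0.22). Igf2r (0.31) and Kif22 (0.42) followed Ckb as neighbours of Acp5. Clcn7 was nearest to Mdh2 (0.03), Tsfm (0.04) and Rpp14 (0.07) and its distance from the other members was 0.61 to 2.13. Distances involving Car2, Calcr and Slc9b2 include values set to the floor, as do those to Igf2r and Aurka. The distance of Calcr to Nfatc1 carries the limit given above for the Nfatc1 reading with deltaNFAT.

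Markers of other cells moved with these comparisons, and their part in the results was not tested. Beside the counts for Fos+/+ over Fos-/- spleen stand 6.52% of all genes higher and 6.4% lower. Of 13 measured macrophage markers 5 were lower and 1 higher in Fos+/+ than in Fos-/- spleen. With a pseudocount 3 were lower and 1 higher, and with the floor at the 60th percentile 4 were lower and 0 higher. The macrophage markers had a summed intensity of 9782 for Fos+/+ spleen cells, 12358 for Fos+/+ marrow cells, 15103 for uninfected Fos-/- cells, 17045 with GFP and 15723 with deltaNFAT. Adgre1, which marks macrophages, read 327 in Fos+/+ and 643 in Fos-/- spleen, which was 1.96-fold lower with Fos and not called. Neutrophil markers ran from a sum of 1425 in Fos+/+ spleen and 3281 in Fos-/- spleen to 4865 with deltaNFAT, 7021 with GFP and 9953 in Fos+/+ bone marrow. Of these 12 markers 8 were bright enough, 5 were lower and 0 higher in Fos+/+ than in Fos-/- spleen. The lower ones fell to 2 with a pseudocount and 3 with the floor at the 60th percentile in that comparison. Of 15 stromal markers 2 were lower and 0 higher there, with sums from 17150 to 20482, and Col1a1 ranged from 3416 to 4186. Macrophages can express Acp5 as well. Red cell precursors are a known source of Car2. Of 8 erythroid markers 3 were bright enough and 0 differed between Fos+/+ and Fos-/- spleen. For Fos+/+ bone marrow over GFP, where Car2 was also higher, 2 of 8 were higher (Slc4a1 at 2.21-fold and Rhag at 2.39-fold). Both were dim, and both calls were lost with a pseudocount, with 4 times the floor needed and with 3-fold needed. Slc4a1 read 56.5 in bone marrow, 25.6 with GFP and 35.5 in uninfected Fos-/- spleen. Rhag read 47.5, 19.9 and 40.5 in the same order, so both calls rest on the GFP array. The erythroid sums ran from 358 in uninfected Fos-/- spleen to 549 in Fos+/+ bone marrow. Klf1 alone read 216 and 346 on these arrays, so the sums mostly follow that gene. Alas2, Epb42, Epor and Hbb-b2 were under the floor on all 5 arrays. For Fos+/+ over Fos-/- spleen, 0 of the B cell, megakaryocyte, mast cell, dendritic cell and MHC class II and osteoblast markers were called. Of these, 5 of 5 B cell, 4 of 6 dendritic cell and MHC class II, 1 of 4 megakaryocyte, 1 of 5 mast cell and 1 of 2 osteoblast markers were bright enough, so the rest could not be called. In the same comparison 2 of 4 adipocyte markers were higher and 2 of 7 T and NK cell markers lower, with Cd3e under the floor on every array. On each of these lists 2 markers were bright enough. The call of Zap70, 1 of the lower T and NK cell markers, was lost with unsuffixed probe sets, at a log2 ratio of 0.10. For deltaNFAT over GFP, 1 of 13 macrophage and 1 of 6 dendritic cell and MHC class II markers were higher, and 0 genes of the other 9 marker lists were called, where 3.52% of all genes were higher. The macrophage marker was Itgam, also the 1 higher in Fos+/+ than in Fos-/- spleen. It was dim, at 56.6 with deltaNFAT and 49.7 in Fos+/+ spleen. Both calls were lost with the floor at the 60th percentile, with 4 times the floor needed and with 3-fold needed. For Fos+/+ bone marrow over GFP, where 9.19% of all genes were higher and 5.98% lower, 4 neutrophil, 2 B cell, 2 adipocyte, 1 stromal and 1 dendritic cell and MHC class II markers were higher, and 3 macrophage and 1 B cell markers lower. The 2 higher B cell markers read 63.3 and 131 in bone marrow and 52.0 and 108 in uninfected Fos-/- spleen. Their calls thus rest on the GFP array. With GFP over no virus, 3 of 13 macrophage and 4 of 12 neutrophil markers were higher and 0 lower. Of 5 B cell markers 1 was higher and 2 lower, where 10.3% of all genes were higher and 7% lower. With deltaNFAT over no virus, 4 macrophage and 2 neutrophil markers were higher and 0 lower. Of the B cell markers 1 was higher and 3 lower, where 11% of all genes were higher and 6.66% lower. Some markers of other lists were called there as well.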

How the data were processed

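RNA was measured in 5 co-cultures, 1 array each, grouped by sample title. The authors deposited 1 intensity per probe set on a linear scale. The upstream software was not given in the sources used here. Their means without the lowest and highest 2% lay between 99.99 and 100.0, so the deposited values were already scaled. Each array was multiplied to an equal such mean, the floor was set, and log2 was taken last, in Python 3.11.15 with numpy 2.4.6 and pandas 2.3.3.

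Names came from the platform annotation, which gave 1 symbol for 10855 probe sets. Control probe sets were left out, and the brightest probe set stood for a gene. No test was possible with 1 array per group, and precision is limited by having 5 arrays.

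The members and all gene lists were chosen with earlier results of these data known. Named were all probe sets of the members, up to 4 of each related list past 2-fold in the first 3 comparisons with Ctsk, Nfatc1 and Slc4a2, the 3 genes nearest in profile to each member, and up to 2 defining markers per cell type. Relatives named at or under the floor, those under 2-fold (Acp6, Calcrl, Ramp2, Ramp3) and Epb42, Alas2, Epor, Hbb-b2, Rhag, Klf1, Itgam and Zap70 were named after their values were seen.

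The 9 alternatives were the values as deposited, quantile normalization, floors at the 30th and 60th percentiles, a pseudocount equal to the floor, the mean of a gene's probe sets, probe sets without a letter suffix, 4 times the floor for a call and 3-fold for a call. Promoters were also searched with 50 bases after the start added.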

Additional observations from a re-analysis of the deposited data

How the results depend on the processing

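Of 378 pairings of a member's ratio with an alternative (42 ratios, 9 alternatives), 355 were unchanged, 20 lost a call, 3 gained one and 0 changed sign while called. The unchanged pairings include ratios that had no call to lose, such as Car2, Calcr and Slc9b2 in GFP over no virus. Their number therefore does not measure how stable the calls were. In Fos+/+ over Fos-/- spleen, the 6 higher members kept their call under all 9, with log2 ratios of 3.90 to 6.13 for Car2, 2.37 to 5.51 for Calcr, 2.46 to 5.59 for Slc9b2, 3.002 to 3.12 for Acp5, 2.59 to 2.67 for Ckb and 1.81 to 2.43 for Myo1d. Each of these 6 has 1 probe set, and its identifier has no letter suffix. The mean of probe sets and the unsuffixed probe sets therefore could not change their calls. The values as deposited were already scaled and nearly equal to the main ones. Clcn7 gained a call with unsuffixed probe sets in Fos+/+ over Fos-/- spleen (1.12) and in Fos+/+ bone marrow over GFP (1.23). In the latter, Slc9b2 (0.89) and Myo1d (0.87) lost theirs with the floor at 65.1. For deltaNFAT over GFP the number of higher members was 5, but 2 at the floor of 65.1, 3 when 4 times the floor was needed and 2 at 3-fold. Over no virus these were 4, 1, 2 and 1. At the floor of 65.1 Acp5 and Ckb were kept over GFP and Acp5 over no virus. Bone marrow over Fos+/+ spleen had 1 lower member, 2 after quantile normalization (Myo1d, -1.01) and 0 at 3-fold, and GFP over no virus had 1, or 0 at 3-fold. The median share of the Fos+/+ spleen level in Fos-/- spleen rose from 12.0 to 18.2% at the floor of 65.1. Motif counts in the member windows were equal with the longer window, while the shares over all windows rose, for AP-1 from 6.75 to 7.81% and for PU.1 from 23.3 to 28.3%.

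Background counts follow the floor: in Fos+/+ over Fos-/- spleen 326 genes were higher and 320 lower, against 512 and 502 at the 30th percentile, 139 and 125 at the 60th, 215 and 206 at 4 times the floor and 111 and 86 at 3-fold. Genes lower fell to 180 with a pseudocount. For deltaNFAT over GFP the counts were 177 and 134, against 374 and 258, 37 and 21, 84 and 64, 62 and 35, and 113 and 73 with a pseudocount. For Fos+/+ bone marrow over GFP they were 483 and 314, against 797 and 505, 143 and 114, 267 and 192, and 137 and 96, with 273 higher for a pseudocount. The other 3 comparisons also moved by over 1.5 times: bone marrow over Fos+/+ spleen from 694 and 380 to 264 higher and 146 lower at the 60th percentile, GFP over no virus from 529 and 358 to 235 and 104, and deltaNFAT over no virus from 569 and 345 to 243 and 129. Quantile normalization moved the median log2 ratio of all tested genes in bone marrow over Fos+/+ spleen from 0.06 to -0.04. No paired analysis was possible because each group has 1 array and the labels give no replicate numbers. Leaving out an array was not possible for the same reason.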
